A study of Homo sapiens with 4 samples.

Results

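The genes of the proteasome, the protease complex that degrades ubiquitin-tagged proteins, were examined in SAS cells after knockdown of AEG-1. Members were all array probes, control spots left out, whose gene symbol reads PSM, then a letter from A to G, then a number. They comprised 63 probes of 48 genes, out of 34127 probes and 27953 genes on each array. SAS is a cell line derived from a human squamous cell carcinoma of the tongue. SB cells are SAS cells that received a lentiviral pLKO.1 vector encoding the LYRIC shRNA-B, LYRIC being another name of AEG-1 (gene symbol MTDH). SCt cells are the control; the labels give its construct as the pLKO.1 vector, whereas the paper calls it a scrambled shRNA. Both are stable clones selected for 14 days with 2 μg/ml puromycin and kept in it, so the comparison rests on 1 shRNA in 1 line. RNA of both was hybridized together on each of 4 arrays of 1 slide, with 15 μg of RNA per labelling, SB cells in red and SCt cells in green. With 0 dye-swapped arrays, a probe's preference for a dye and an effect of the knockdown cannot be told apart. The labels describe biological replicates, but separate cultures are not stated, so the p-values measure only the spread between these arrays, which may be technical. Of the spots on an array, 84.7% to 90.3% were well above background in either channel, and precision is limited by the small number of arrays.

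The proteasome consists of a barrel-shaped core particle, capped by regulatory particles. The core is built from rings of alpha subunits, which gate the entrance, and rings of beta subunits, some of which carry the catalytic sites. The regulatory particle recognizes ubiquitin chains, unfolds the substrate with a ring of ATPases and feeds it into the core. When cells are exposed to interferon-gamma, the constitutive catalytic subunits are replaced by immunoproteasome subunits, and the PA28 activator can take the place of the regulatory particle. In carcinoma cells, this exchange is best known for its part in producing the peptides that HLA class I molecules present.

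AEG-1 itself was examined first. Its SB over SCt log2 ratio, normalized by loess within each array, was −3.18, −3.01, −3.12 and −3.41 on arrays 1 to 4, with a mean of −3.18 ± 0.17 (SD, n = 4 arrays; limma adjusted p = 5.21e-10). The transcript was thus 9.07-fold lower in SB cells, in the direction of the label on each array. In RNA of a whole culture, fewer cells with a transcript and less of it per cell cannot be told apart. All 13 markers of squamous epithelium, such as KRT5, KRT14 and TP63, were well above background in both channels on the 4 arrays. The markers of other cell types were less informative, since 7 of 7 measured leukocyte markers, 4 of 4 endothelial markers and 3 of 6 fibroblast markers also reached that level, whereas the fibroblast genes COL3A1 and LUM did so on 0 arrays. Of 27 marker genes tested between SB and SCt cells, 0 passed an adjusted p of 0.05 in limma, with log2 ratios from −0.28 (KRT6A) to 0.21 (EGFR).

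None of the measured proteasome genes was called different between SB and SCt cells. A gene was read at its brightest kept probe, and 47 of the 48 genes had a probe that stood well above background on 4 arrays of at least 1 channel. Of these, 0 passed an adjusted p of 0.05 in limma, where the same rule called 3.51% of all 23485 genes tested, 295 with a higher and 530 with a lower level in SB cells. Since 47 genes at that rate would hold only a few calls, a count of 0 lies near the background and is not a result particular to the proteasome. At an unadjusted p under 0.05, limma counted 5 members (10.6%) beside 18.1% of all genes, and the methods' t-test 2 (4.26%) beside 13.7%. After adjustment the methods' t-test called 0 members and 0 genes in all. Of all 28507 probes tested, 376 were called higher (1.32%) and 679 lower (2.38%), 3.7% in either direction, and of the 61 kept probes of the members 0 were called. The counts over all probes were 5599 higher and 3340 lower when each array was centred on its median in place of loess. That alternative called 15 of 47 proteasome genes (31.9%), each of them higher in SB cells, beside 31.9% of all genes (20.8% higher), and no other called more than 1 member.

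The sizes of the ratios were small. The log2 ratio of the 47 genes lay between −0.22 (PSMD7) and 0.32 (PSMB9), with a median of −0.03 beside 0.01 for all genes tested. The median absolute value was 0.06 for the proteasome genes and 0.07 for all genes. In 45 of 47 members, the 95% interval of the limma fit, not adjusted for the number of genes, excluded a change of 1.3-fold in either direction, and in 47 of 47 it excluded 1.5-fold. The 2 members whose intervals reached past 1.3-fold were PSMA3 and PSMB9. These intervals and the signs given for single members and arrays hold for loess normalization; with median centring, 45 of the 47 ratios were above 0 and that of PSMB9 exceeded 1.5-fold.

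**Figure D1:**
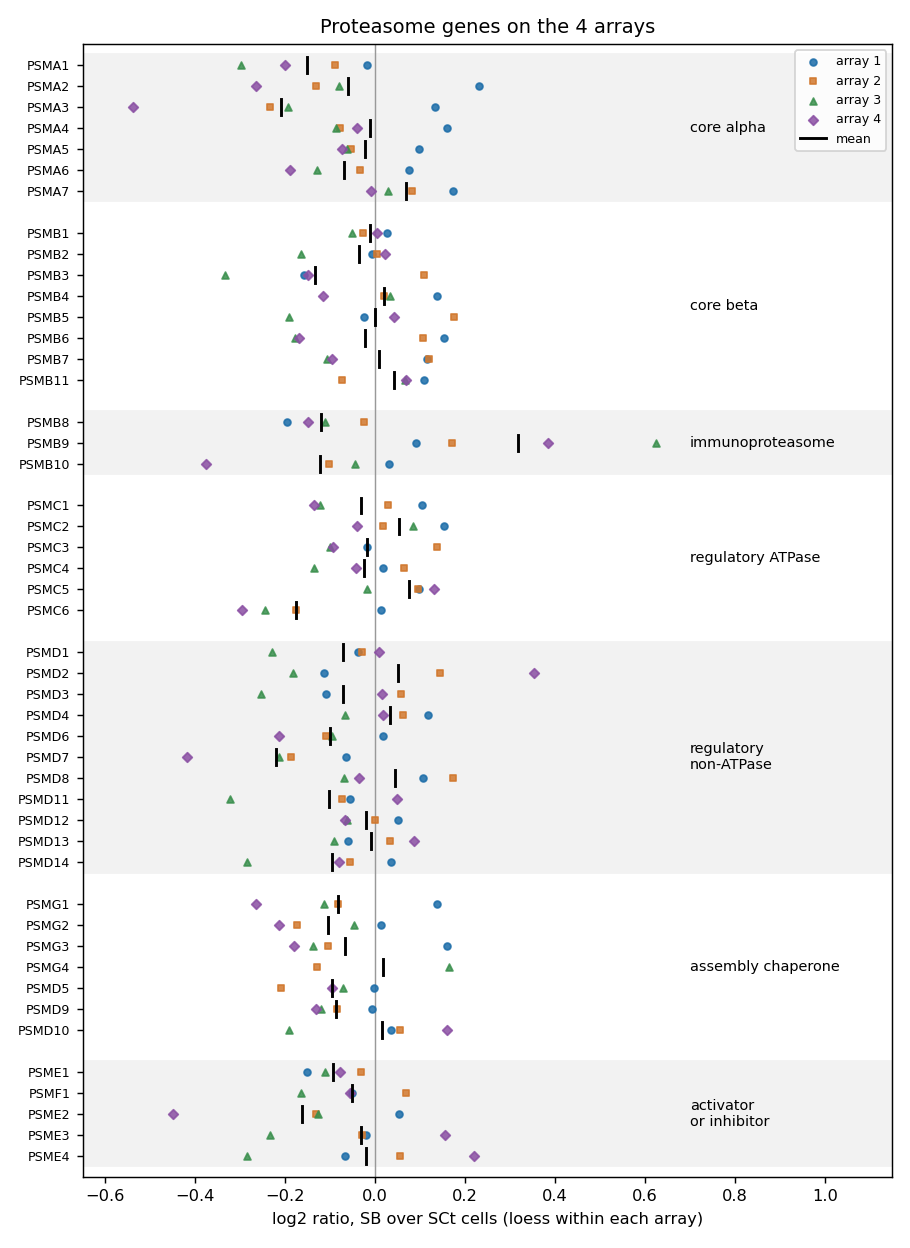
Log2 ratio of SB over SCt cells (horizontal axis, loess within each array) for the 47 measured proteasome genes, grouped by role. Symbols are the 4 arrays and the black bar is their mean; most genes have arrays on both sides of 0, and PSMB9 is the gene with 4 arrays above 0.

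The members varied from array to array. On array 1, 28 of 46 members had a ratio above 0, on array 2 it was 21 of 47, on array 3 it was 6 of 47 and on array 4 it was 15 of 46. Among all genes, the share above 0 was 50.9%, 52.1%, 55.4% and 52.2%, so the low count of array 3 was not shared by the array as a whole. The median of the members was 0.03, −0.03, −0.11 and −0.08 on arrays 1 to 4. Array 3 was thus the lowest and array 1 the highest for the group. Of the 46 members with values on 4 arrays, 1 was above 0 on all of them and 6 below (2.17% and 13.0%), beside 14.1% and 12.3% of all genes. The 6 were PSMA1, PSMB8, PSMD5, PSMD7, PSMD9 and PSME1.

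For the alpha subunits of the core, the median of 7 genes was 0.13 on array 1, −0.08 on array 2, −0.09 on array 3 and −0.19 on array 4, a mean of −0.06 ± 0.13 (SD, n = 4 arrays) that ran from −0.12 without array 1 to −0.01 without array 4. On array 1, 6 of 7 alpha genes were above 0, and on array 4, 7 of 7 were below. PSMA3, the alpha subunit with the lowest ratio, read 0.13, −0.23, −0.19 and −0.54 on arrays 1 to 4, with a mean of −0.21 ± 0.27 and an adjusted p of 0.225 in limma. Its arrays thus lay on both sides of 0, with array 4 far below. PSMA7, the highest, had a mean of 0.07 ± 0.08, with 0.17 on array 1 and −0.01 on array 4. PSMA8, a subunit known from the testis, was read by 1 probe that was well above background on 2 arrays in SB and 3 in SCt cells and was not tested.

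The beta subunits of the core outside the immunoproteasome, 7 constitutive genes and PSMB11, had the role median closest to 0 with loess and the highest with median centring (0.21). With loess the median of the 8 genes was 0.07, 0.06, −0.14 and −0.05 on arrays 1 to 4, with a mean of −0.01 ± 0.10 that was above 0 without array 3 (0.03). PSMB5, which carries the chymotrypsin-like site, read −0.03, 0.17, −0.19 and 0.04, PSMB6, with the caspase-like site, 0.15, 0.11, −0.18 and −0.17, and PSMB7, with the trypsin-like site, 0.12, 0.12, −0.11 and −0.10. In all 3 catalytic genes, array 2 was above 0 and array 3 below. Their means were −0.00050 ± 0.15 for PSMB5, −0.02 ± 0.18 for PSMB6 and 0.01 ± 0.13 for PSMB7, and the sign of each turned when single arrays were left out. PSMB3, a structural subunit, was the lowest at −0.13 ± 0.18 (adjusted p = 0.343 in limma), although array 2 gave 0.11. PSMB11, the catalytic subunit known from thymic epithelium, was the highest at 0.04 ± 0.08.

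Of the 3 immunoproteasome genes, 0 were called. PSMB9, the counterpart of PSMB6, had the highest ratio of all members, and it read 0.09, 0.17, 0.63 and 0.38 on arrays 1 to 4. The mean was 0.32 ± 0.24 (SD, n = 4 arrays), 1.25-fold higher in SB cells, and limma gave an adjusted p of 0.0546. Arrays 3 and 4 were high and arrays 1 and 2 close to 0. Without array 1 the ratio was 0.39 with an adjusted p of 0.0402 in limma, where 2.11% of all genes were called. Without array 4 it was 0.30 ± 0.29 with an adjusted p of 0.0158, a lower ratio with a wider spread. There, 6.58% of all genes were called, beside 3.51% with 4 arrays. Without array 3 the ratio was 0.22 with an adjusted p of 0.267. PSMB8, the counterpart of PSMB5, read −0.20, −0.02, −0.11 and −0.15, with a mean of −0.12 ± 0.07 and an adjusted p of 0.279 in limma. All 4 arrays were below 0, opposite to PSMB9, its neighbour in the HLA region. With median centring, the ratio of PSMB8 was −0.012 (adjusted p = 0.893 in limma). PSMB10, the counterpart of PSMB7, read 0.03, −0.10, −0.05 and −0.38, with a mean of −0.12 ± 0.18 that array 4 pulled down.

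PSMB9 was read by 1 probe, which was also among the brightest of the array. The other immunoproteasome genes were far dimmer, with red intensities of 2402 to 4855 (PSMB8) and 2968 to 7993 (PSMB10) over the arrays. Whether the bright probe reads PSMB9 alone was not tested. Before normalization, its median intensity was 219620, 191079, 221892 and 201382 in the red channel of SB cells on arrays 1 to 4, and 75394.9, 85458.5, 69039.8 and 82433.6 in the green channel of SCt cells. No array had a saturated spot. In order of brightness, its probe was number 13 of 28507, and the 12 brighter probes had log2 ratios from 0.33 to 1.13 with a median of 0.59, all of them called higher. The part of this in the ratio of PSMB9 was not tested. The ratio given by the scanner software was lower, 0.15 with an adjusted p of 0.474, and the median-centred ratio was higher, 0.80 with an adjusted p of 0.000235 in limma.

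Each immunoproteasome gene was then set against the constitutive gene it replaces, within each array. PSMB9 minus PSMB6 was −0.06, 0.06, 0.80 and 0.55 on arrays 1 to 4, a mean difference of 0.34 ± 0.41. PSMB8 minus PSMB5 was −0.17, −0.20, 0.08 and −0.19, a mean of −0.12 ± 0.13, and PSMB10 minus PSMB7 was −0.08, −0.22, 0.06 and −0.28, a mean of −0.13 ± 0.15. In each pair, 1 of the 4 arrays had the opposite sign to the mean. PSMB9 minus PSMB6 was 0.18 with the software's ratio, 0.19 without array 3 and 0.56 with median centring. PSMB8 minus PSMB5 was −0.25 with median centring and −0.19 ± 0.01 without array 3, and PSMB10 minus PSMB7 was −0.08 without array 4. The exact two-sided sign-flip permutation test gave p = 0.25 for each of the 3 pairs, also after Benjamini-Hochberg adjustment over them, but 4 arrays cannot give less than 0.125, so its outcome says nothing for or against an exchange.

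**Figure D2:**
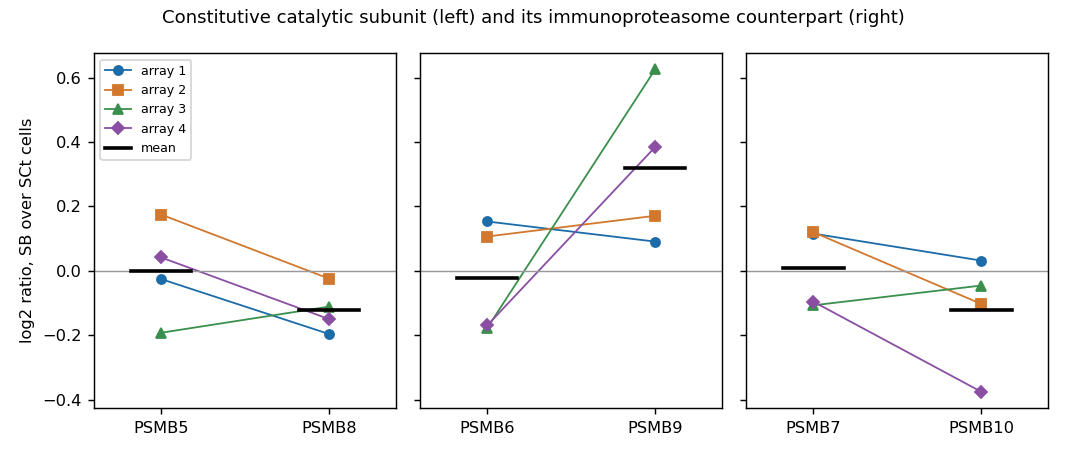
Log2 ratio of SB over SCt cells (vertical axis) for each constitutive catalytic subunit and its immunoproteasome counterpart. Lines join the values of 1 array and black bars are means of 4 arrays; PSMB9 stands above PSMB6 on arrays 2, 3 and 4, while the means of PSMB8 and PSMB10 lie at −0.12.

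Promoter sequences are shown for genes that interferon-gamma is known to induce, because 4 of them share letters that most members, PSMB9 among them, lack. RefSeq windows (GRCh38.p14) of 300 bases, 250 before the start of the transcript and 50 after, were matched by symbol for 42 of the 48 genes, 51 windows in all. The windows were searched on both strands for the interferon-stimulated response element, spelled TTTC, then any 2 bases, then TTTC, which 3.57% of all 35116 windows held. Among the proteasome genes, 7 held it, namely 4 of the 6 immunoproteasome and PA28 genes (PSMB8, PSMB10, PSME1 and PSME2, but not PSMB9 and PSME3) and 3 of the other 36 (PSMA4, PSMB4 and PSMG4). In those 4 and in PSMG4, the letters were the same, TTTCGCTTTC, read on one strand or the other. These exact letters, looked for after the matches had been seen, occur in 0.0997% of all windows. The capitals below mark them, beginning at base 247 in PSMB8 (chr6:32843998-32844297, minus strand), at base 230 in PSMB10 (chr16:67936801-67937100, minus strand), at base 256 in PSME1 (chr14:24135944-24136243, plus strand) and at base 223 in PSME2 (chr14:24146561-24146860, minus strand), where PSMB10 and PSME2 show the complement. All are printed 5′ to 3′ along the transcript's strand.
PSMB8: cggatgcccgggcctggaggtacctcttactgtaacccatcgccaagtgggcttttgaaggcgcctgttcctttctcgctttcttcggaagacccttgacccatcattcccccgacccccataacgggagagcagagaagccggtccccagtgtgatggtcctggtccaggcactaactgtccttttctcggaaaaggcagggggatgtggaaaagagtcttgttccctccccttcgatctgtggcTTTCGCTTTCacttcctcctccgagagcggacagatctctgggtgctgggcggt
PSMB10: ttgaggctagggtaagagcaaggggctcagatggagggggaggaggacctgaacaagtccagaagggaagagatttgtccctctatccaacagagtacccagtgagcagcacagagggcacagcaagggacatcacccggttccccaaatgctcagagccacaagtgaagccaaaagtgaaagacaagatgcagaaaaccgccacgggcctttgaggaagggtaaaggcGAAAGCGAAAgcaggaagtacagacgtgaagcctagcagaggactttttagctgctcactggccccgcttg
PSME1: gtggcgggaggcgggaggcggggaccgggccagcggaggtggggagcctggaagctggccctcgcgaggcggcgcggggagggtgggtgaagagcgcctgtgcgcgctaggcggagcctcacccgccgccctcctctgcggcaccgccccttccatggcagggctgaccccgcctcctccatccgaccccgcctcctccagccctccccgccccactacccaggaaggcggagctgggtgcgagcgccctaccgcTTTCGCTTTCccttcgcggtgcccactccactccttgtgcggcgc
PSME2: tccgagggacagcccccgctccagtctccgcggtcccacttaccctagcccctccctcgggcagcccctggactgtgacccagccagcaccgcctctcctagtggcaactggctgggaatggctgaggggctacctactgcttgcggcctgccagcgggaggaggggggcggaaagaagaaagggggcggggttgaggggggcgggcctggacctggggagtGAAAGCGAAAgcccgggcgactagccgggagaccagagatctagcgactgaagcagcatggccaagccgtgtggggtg

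The other PSMB8 window, of an alternative start, did not have these letters, nor did that of PSMB9 (chr6:32853942-32854241, plus strand), shown for contrast because its ratio differed most from the rest. In PSMB9 the capitals mark the antioxidant response element at base 103, spelled TGACNNNGC and here on the opposite strand. The element does not set PSMB9 apart, since the PSME1 and PSME2 windows above also hold 1 each, left unmarked there.
PSMB9: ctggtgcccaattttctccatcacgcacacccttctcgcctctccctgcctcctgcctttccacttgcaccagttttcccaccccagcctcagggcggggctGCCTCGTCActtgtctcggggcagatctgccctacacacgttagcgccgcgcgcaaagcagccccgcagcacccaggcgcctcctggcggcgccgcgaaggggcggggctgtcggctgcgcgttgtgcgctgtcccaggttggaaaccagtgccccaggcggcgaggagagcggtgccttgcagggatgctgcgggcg
This element, the motif bound by NFE2L1 and NFE2L2, was in 15 of the 51 windows (29.4%), beside 13.3% of all windows. The gamma-activated site, TTCNNNGAA, was in 8 of 51 (15.7%), beside 7.66% of all windows. The CCAAT box, CCAAT, was in 20 of 51 (39.2%), beside 34.6% of all windows. The NF-kB consensus was in 2 of 51 (3.92%), beside 11.3% of all windows. Matches of different motifs overlapped in 0 cases. The 4 genes with the shared interferon letters had log2 ratios of −0.12 (PSMB8), −0.12 (PSMB10), −0.09 (PSME1) and −0.16 (PSME2), all below 0 with loess and none called, and PSMG4 had 0.02. Among the 47 measured members, 35 (74.5%) were below 0 with loess, so this sign is not particular to these genes. With median centring, PSMB10, PSME1 and PSME2 were above 0 and PSMB8 was at −0.012. A match is a description of the letters and draws nothing about binding.

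The ATPases of the regulatory particle, which unfold substrates, spread around 0. The median of the 6 genes was 0.06, 0.05, −0.11 and −0.07 on arrays 1 to 4, a mean of −0.02 ± 0.08 that was above 0 without array 3 (0.01). PSMC6 was the lowest, with 0.01, −0.18, −0.25 and −0.30, a mean of −0.18 ± 0.14 and an adjusted p of 0.157 in limma. Array 1 alone was above 0. PSMC5, the highest, read 0.10, 0.10, −0.02 and 0.13, a mean of 0.08 ± 0.07, with array 3 apart from the others.

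The other subunits of the regulatory particle form its lid and base, and they bind and remove ubiquitin. Their median over 11 genes was −0.04, −0.00098, −0.18 and 0.01 on arrays 1 to 4, a mean of −0.05 ± 0.09 that was −0.01 without array 3, where all 11 were below 0. PSMD7, the lid partner of the deubiquitinase PSMD14, had the lowest ratio of all members. It read −0.07, −0.19, −0.21 and −0.42, with a mean of −0.22 ± 0.15, 1.17-fold lower in SB cells, and limma gave an adjusted p of 0.0887. All 4 arrays were below 0, and array 4 was the lowest. With median centring, the ratio of PSMD7 was −0.07 (adjusted p = 0.463 in limma). PSMD2, a scaffold of the base that docks ubiquitin shuttles, was the highest at its brightest probe, 0.05 ± 0.25, with −0.11, 0.14, −0.18 and 0.35. Its other probe gave −0.05 ± 0.17 and the mean over both 0.0025, so its sign and rank depended on the probe. Array 4, which was the lowest for PSMD7, was the highest for the brightest probe of PSMD2.

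The assembly chaperones help the rings to form and do not stay in the finished particle. The median of the 7 genes was 0.02, −0.10, −0.11 and −0.16 on arrays 1 to 4, a mean of −0.09 ± 0.08. PSMG2, which pairs with PSMG1 to assemble the alpha ring, was the lowest at −0.11 ± 0.11 (adjusted p = 0.378 in limma), with 0.01, −0.17, −0.05 and −0.21. Array 1 was above 0 and the others below. PSMG4, which pairs with PSMG3, was the highest at 0.02 ± 0.21, but its kept probe had values on 2 arrays only (−0.13 and 0.16 on arrays 2 and 3), the other spots being marked as outliers by the scanner software. Its other probe was well above background on 2 arrays and was not tested.

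The activators and the inhibitor PSMF1 bind the ends of the core. At their brightest probes, all 5 genes had a mean below 0 with loess and above 0 with median centring, but the 3 other kept probes of PSMF1 were above 0 with loess as well (0.01 to 0.18). Their median with loess was −0.05, −0.03, −0.16 and −0.06 on arrays 1 to 4, a mean of −0.08 ± 0.06 that was −0.05 without array 3. PSME1, the alpha subunit of PA28, read −0.15, −0.03, −0.11 and −0.08, a mean of −0.09 ± 0.05 (adjusted p = 0.398 in limma). PSME2, its beta subunit, read 0.05, −0.13, −0.13 and −0.45, a mean of −0.16 ± 0.21 (adjusted p = 0.271 in limma). PSME1 was below 0 on 4 arrays, whereas the mean of PSME2 owed much to array 4. At the brightest probes, PSME4, a large activator known from DNA repair and spermatogenesis, had the highest ratio, −0.02 ± 0.21. It read −0.07, 0.06, −0.29 and 0.22 on arrays 1 to 4. Its other kept probe gave −0.18 and the mean over both −0.10, so its rank depended on the probe.

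Genes with several probes gave a measure of how far a small ratio can be read. Of the members, 12 had several kept probes. The 4 probes of PSMF1 had log2 ratios from −0.05 to 0.18, a spread of 0.24, and the brightest gave the lowest value. In PSME4 the probes gave −0.02 and −0.18, and in PSMD9, a chaperone of the ATPase ring, −0.09 and 0.06. In the other 9 genes, the probes differed by 0.01 to 0.10. The spread within PSMF1 was larger than the ratio of any member but PSMB9, but it rested on its highest probe. That probe was uneven between arrays, with red intensities of 4021, 3347, 30390.5 and 10516 on arrays 1 to 4. The next highest probe of PSMF1 gave 0.10.

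The signs of the proteasome genes rested on the normalization. Median centring in place of loess raised the ratio of 47 of 47 members, by 0.04 to 0.48 on the log2 scale with a median of 0.19, while the median of all genes rose by 0.06. The number of members above 0 went from 12 to 45. Of all genes, 31.9% were then called, 20.8% in the higher direction, beside 15 of 47 members (31.9%), all higher. The 23 brighter members had a median-centred median of 0.21 and held 14 of the 15 calls, whereas the 24 dimmer ones had 0.09 and held 1. The ratio thus went with the brightness of the spot when it was not removed within each array, and whether that trend carries an effect of the knockdown was not tested. The software's ratio, dye-normalized by the software, gave the members a median of −0.03, with 14 of 47 above 0. No direction is given here for the proteasome genes as a group, since the median of the members was −0.03 with loess and 0.14 with median centring.

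**Figure D3:**
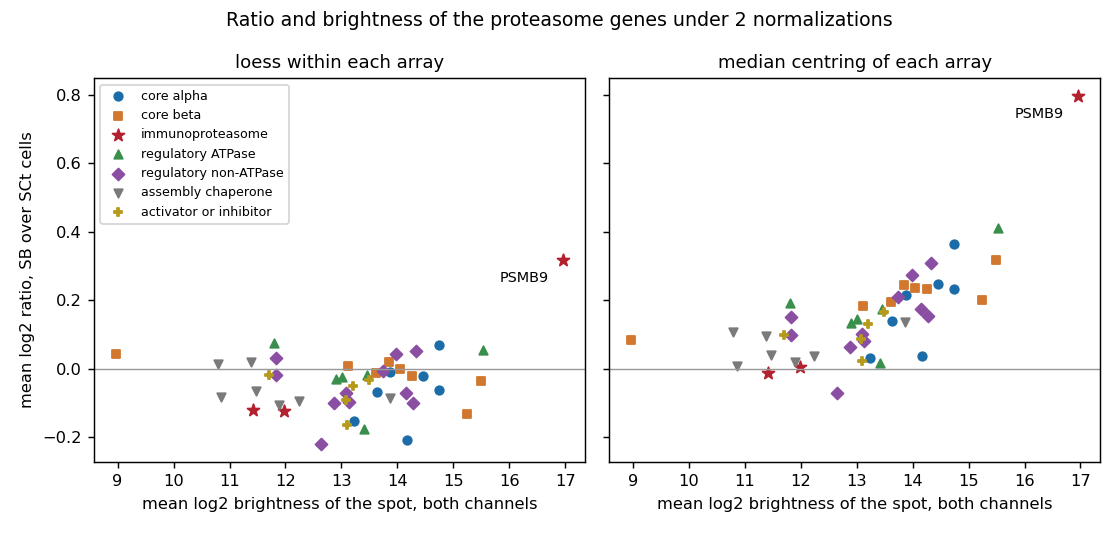
Mean log2 ratio of SB over SCt cells (vertical axis) against the mean log2 brightness of the spot in both channels (horizontal axis) for the 47 proteasome genes, with loess (left) and with median centring (right). Colours and symbols are the roles; with median centring the ratio is higher in brighter spots and 45 genes lie above 0.

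Genes that work with the proteasome but are not members were examined as a list of 28 measured genes, of which 0 were called higher and 2 lower in SB cells (limma; 1.26% and 2.26% of all genes). The median log2 ratio of the list was −0.05, beside 0.01 for all genes. With median centring, 11 of the 28 were called higher and 3 lower, where 31.9% of all genes were called and 20.8% higher. UCHL5, a deubiquitinase that trims ubiquitin chains on the regulatory particle, read −0.30, −0.39, −0.46 and −0.48 on arrays 1 to 4. The mean was −0.41 ± 0.08, 1.32-fold lower in SB cells, and limma gave an adjusted p of 0.00276. All 4 arrays lay close together below 0, and the gene's other probe gave −0.30 ± 0.05 (adjusted p = 0.0125 in limma). Aquantile, which cannot change a ratio, and the series table, which repeats the software's ratio, are left out of the following counts. UCHL5 kept its call in 13 of 14 alternative settings, median centring included (−0.27), and lost it in 1, the methods' t-test (adjusted p = 0.198).

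USP14, the other deubiquitinase that binds the particle reversibly, read −0.33, −0.22, −0.32 and −0.13, a mean of −0.25 ± 0.09 and an adjusted p of 0.0387 in limma. Its 4 arrays were below 0, but the call was lost without array 1, 2 or 3 (adjusted p = 0.128, 0.134 and 0.193) and in 8 of the 14 alternatives in all, among them the software's ratio (adjusted p = 0.119) and median centring (0.0571). The ratio stayed below 0 in each, from −0.29 to −0.17. Without array 1, 2 or 3, fewer genes were called in all (2.11%, 1.42% and 0.665%, beside 3.51% with 4 arrays). The third deubiquitinase of the particle, the member PSMD14, had −0.10 ± 0.13 and was not called (adjusted p = 0.449 in limma). POMP, the chaperone that completes the core, read −0.07, −0.13, −0.31 and −0.37, a mean of −0.22 ± 0.14 (adjusted p = 0.0869 in limma). NFE2L1, the transcription factor that induces proteasome genes when the proteasome is impaired, had 0.13 ± 0.08 (adjusted p = 0.268 in limma). Both of these missed the threshold, POMP with 4 arrays below 0 and NFE2L1 with 4 above. With median centring both passed it, POMP at −0.19 (adjusted p = 0.0401 in limma) and NFE2L1 at 0.26 (adjusted p = 0.0121 in limma).

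Of 22 measured genes of antigen presentation and interferon-gamma signalling, the pathway that takes up proteasome products, 0 were called higher and 2 lower (limma; 1.26% and 2.26% of all genes), with a median log2 ratio of −0.05 beside 0.01 for all genes. With median centring, 3 of the 22 were called higher and 2 lower, again beside 31.9% of all genes. HLA-B read −0.27, −0.30, −0.30 and −0.20, a mean of −0.27 ± 0.05 (adjusted p = 0.0203 in limma), and HLA-C had −0.25 ± 0.05 (adjusted p = 0.0256 in limma). These 2 genes, which encode closely similar HLA class I heavy chains, were below 0 on each array, and the other HLA-B probe gave −0.37 ± 0.05 (adjusted p = 0.00389 in limma). HLA-B lost its call in 5 of 14 alternatives and HLA-C in 6, with ratios from −0.32 to −0.16 and from −0.27 to −0.17 over all of them. Without array 1, 2 or 3, the adjusted p of HLA-B was 0.0667, 0.119 and 0.118, and that of HLA-C was 0.0732, 0.115 and 0.115, at ratios of −0.27 to −0.26. Of all genes, 2.11%, 1.42% and 0.665% were then called, beside 3.51% with 4 arrays. With median centring, HLA-B had −0.16 (adjusted p = 0.0596) and HLA-C −0.17 (adjusted p = 0.0446). TAP1, a peptide transporter subunit transcribed from the same promoter region as PSMB9 in the other direction, had −0.11 ± 0.14 (adjusted p = 0.412 in limma), the opposite sign to PSMB9. TAP2, the other subunit, had −0.24 ± 0.16 (adjusted p = 0.0738 in limma), which passed the threshold without array 1 (adjusted p = 0.0401) but in 0 of the other 13 alternatives. Its other probe gave 0.03 ± 0.02, above 0 on 4 arrays, and the mean over both was −0.10 (adjusted p = 0.345 in limma), so the sign of TAP2 depended on the probe.

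**Figure D4:**
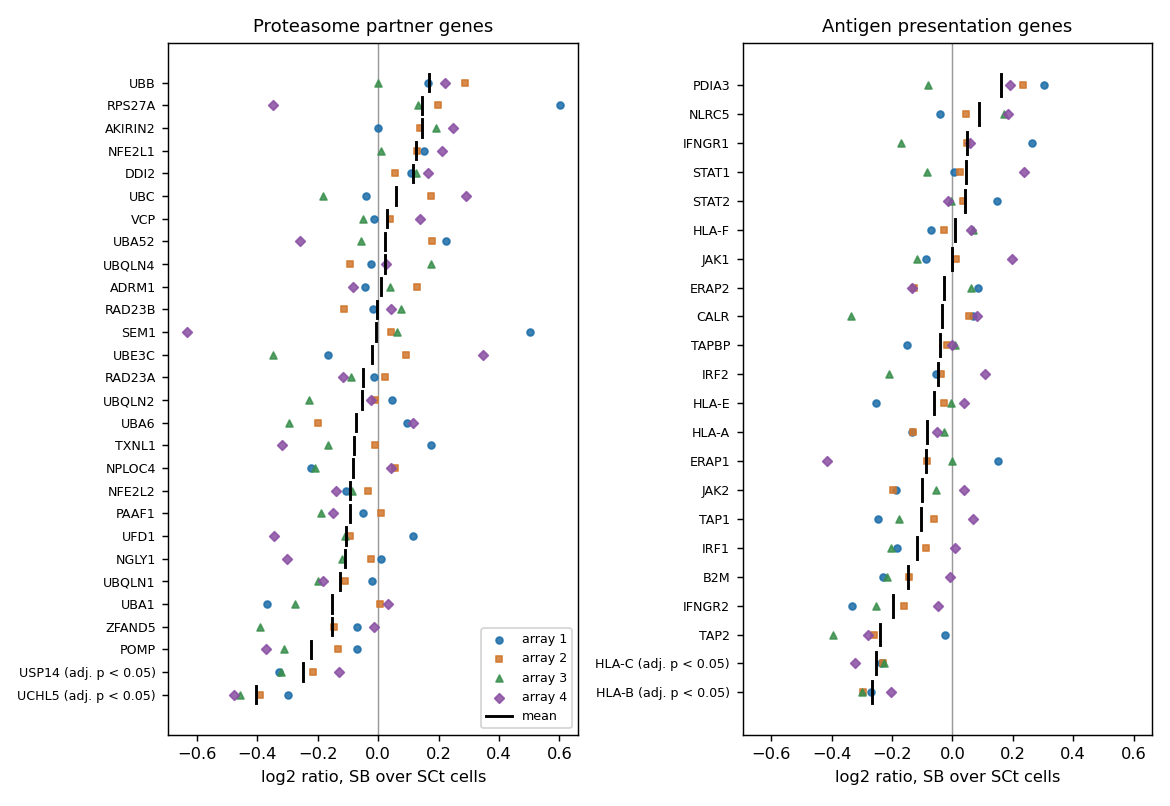
Log2 ratio of SB over SCt cells (horizontal axis, loess within each array) for 28 partner genes of the proteasome (left) and 22 antigen presentation genes (right), sorted by the mean. Symbols are the 4 arrays and black bars their means; UCHL5, USP14, HLA-B and HLA-C, marked beside the name, are the lowest of their lists and are the genes past an adjusted p of 0.05.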

How the data were processed

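Per the file headers, the deposited spot values are median intensities, not normalized, read by Agilent Feature Extraction 10.5.1.1. The deposited files also hold the software's red over green ratio as log10 values, background-subtracted and dye-normalized by the software. The authors deposited a series table on a log2 scale, SB over SCt, whose values equalled the software's processed ratio within 0.001 in 97.6% to 97.9% of probes (column medians −0.02 to 0.02); other steps are not given in the sources used here. The background was corrected by normexp (offset 50) in limma 3.58.1 under R 4.3.3, control and outlier spots were left out (814 to 1168 outlier spots per array), and ratios were normalized by loess. Spots of a probe were averaged. A probe was kept when 1 channel was well above background on 4 arrays and values remained on at least 2, which held for 28507 of 34127 probes. The mean ratio was tested against 0 with lmFit and eBayes, with Benjamini-Hochberg adjustment across all probes kept.

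The arrays' files used here pair probes with accessions but not with gene names. Symbols were therefore taken from RefSeq (GRCh38.p14) through the accession (24826 probes; 9301 kept their identifier), and members were chosen by these symbols. A gene was read at its brightest kept probe. Genes named are MTDH; members that are called, the catalytic pairs, PSME1, PSME2 and the highest and lowest of each role; and, of the lists, called genes with TAP1, TAP2, NFE2L1 and POMP. Others were named after their values were seen. Members and lists were chosen with earlier results of these data known. The steps were tested on simulated data whose known changes were larger than the loess ratio of any member or list gene. How well changes as small as those seen here are found was not tested. Alternatives were the software's ratio, the series table, median centring, Aquantile, no background correction, normexp without an offset, other filters on dim probes, trend and robust options in eBayes, outlier spots kept, the mean over a gene's probes, the methods' t-test and each array left out. A block for the slide was not possible with 1 slide.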

Additional observations from a re-analysis of the deposited data

Results flagged for a closer look

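Of 37 ratios, differences and role medians with values on 4 arrays, 2 had an array far from the others, measured as its gap to the nearest array over the whole range, where chance alone gives about 5% of such groups. The difference PSMB8 minus PSMB5 had a gap of 0.899 of its range, since array 3 gave 0.08 and the others −0.17, −0.20 and −0.19. On that array PSMB5 was at −0.19. The log2 ratio of HLA-C had a gap of 0.898 of its range, with −0.32 on array 4 and −0.24, −0.23 and −0.23 on arrays 1 to 3.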

How the results depend on the processing

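Median centring in place of loess moved most results: it called 8939 probes (5599 higher, 3340 lower), 15 proteasome genes and 19 of their probes (all higher), 14 partner genes (11 higher, 3 lower) and 5 antigen presentation genes (3 higher, 2 lower), beside 31.9% of all genes (20.8% higher). The medians by role became 0.17 (core alpha), 0.21 (core beta), 0.077 (immunoproteasome), 0.15 (ATPases), 0.14 (other regulatory subunits), 0.060 (chaperones) and 0.11 (activators and inhibitor). The sign turned for PSMA3 (0.038), PSMB3 (0.20), PSMB5 (0.24), PSMB6 (0.23), PSMB10 (0.0052), PSMC6 (0.017), PSME1 (0.087), PSME2 (0.022), PSME4 (0.098) and PSMG2 (0.021). The median-centred calls took in PSMA7 (0.36), PSMC5 (0.19) and PSMD2 (0.31), and POMP and NFE2L1 were gained. The cause was not tested. With trend and robust options, 579 probes, 1 partner gene (UCHL5) and 1 antigen presentation gene (HLA-B) were called, and USP14 and HLA-C were lost. The share of all genes called was then 1.89%, beside 3.51% with the main options. By the methods' t-test, 0 probes were called (3936 at an unadjusted p under 0.05), 0 partner genes and 0 antigen presentation genes, and MTDH kept its ratio of −3.18 with an adjusted p of 0.144. Without a normexp offset, 1 partner gene was called, USP14 being lost, beside 2.65% of all genes. The software's ratio called 1 partner and 1 antigen presentation gene, USP14 and HLA-C being lost, beside 2.44% of all genes. The deposited series values called 1 partner and 0 antigen presentation genes (USP14, HLA-B and HLA-C lost), beside 2.42% of all genes. PSME4 was at 0.0068 with either the software's ratio or the series values. With single arrays left out, 204 to 1977 probes were called, and 0.665% to 6.58% of all genes. Among them were 0 to 1 proteasome genes (PSMB9, without array 1 or 4), 0 to 1 of their probes, 1 to 3 partner genes and 0 to 3 antigen presentation genes. The sign then turned for PSMB5 (−0.059 to 0.063, above 0 without array 1 or 3), PSMB6 (−0.080 to 0.030, above 0 without array 3 or 4), PSMB7 (−0.029 to 0.046, below 0 without array 1 or 2), PSMD2 (−0.051 to 0.13, below 0 without array 4), PSME4 (−0.099 to 0.069, above 0 without array 3) and, without array 3, the medians of the core beta genes (−0.040 to 0.029) and the ATPases (−0.045 to 0.011). The ratio moved by over 1.5 times without changing sign for PSMA3 (−0.32 to −0.10), PSMA7 (0.034 to 0.095), PSMB3 (−0.21 to −0.066), PSMB10 (−0.17 to −0.039), PSMB11 (0.020 to 0.081), PSME2 (−0.24 to −0.068), PSMG2 (−0.15 to −0.069), TAP1 (−0.16 to −0.058) and the medians of the core alpha genes (−0.12 to −0.011), immunoproteasome (−0.073 to −0.013), other regulatory subunits (−0.074 to −0.010) and activators and inhibitor (−0.091 to −0.045). Aquantile cannot change a ratio, and its equal values carry no information. The count of proteasome genes stayed at 0 without background correction, with the other filters on dim probes, with outlier spots kept and with a gene's probes averaged. In these settings, 3.15% to 3.63% of all genes were called. SB and SCt cells share each array, so the test of the ratio against 0 is already a paired analysis.

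Precision is limited by 4 arrays of 1 slide and by the lack of a dye swap. The standard errors of the 47 members lay between 0.05 and 0.10 on the log2 scale, so small changes could go undetected. Outlier spots left out reduced PSMG4 to 2 arrays. The signs of the members depend on how the ratio's trend with brightness was treated, and transcripts say nothing here about the amount or activity of the proteasome.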
